A study of Mus musculus with 18 samples.

Results

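The SR proteins, the hnRNPs and the related Tra2, PTB, CELF and RBFOX proteins are RNA-binding regulators of splicing. Their 45 genes were picked by symbol from the 22298 genes of the mRNA table: the numbered Srsf genes, every gene whose symbol begins with Hnrnp, Tra2a and Tra2b, Ptbp1 to Ptbp3, Celf1 to Celf6 and Rbfox1 to Rbfox3. They were compared between whole testes of Taf7l knock-in mice (TKI, 3 libraries) and whole testes of wild-type mice (TWT, 3 libraries), both of the C57BL/6 strain and labelled adult. The knock-in allele carries a missense change in Taf7l, an X-linked gene. Its protein is made mainly in germ cells, where it can take the place of TAF7 in TFIID, the complex that recognises core promoters. The allele is modelled on a human missense variant. No other allele or treatment is named in the labels. The series holds 18 samples, and 12 of them, isolated pachytene spermatocytes and round spermatids of both genotypes, are not used here. The labels do not say which libraries came from separate animals, so each p-value measures library-to-library spread, and some of that spread may be technical.

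SR proteins bind enhancer sequences in exons through RNA recognition motifs and draw the splicing machinery to nearby splice sites through a tail rich in arginine and serine. Many hnRNPs bind silencer sequences in exons or introns and oppose them, so that the balance of both families sets how often an exon is used. Testis is among the tissues with the most alternative splicing, and several of these proteins are needed for sperm formation in mice, PTBP2 and SRSF10 among them.

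The 6 libraries held 17431309 to 21446420 counts on mRNA genes, 1384224 to 1647421 on noncoding transcripts and 14381 to 20127 on circular RNAs. The 45 genes took between 0.423% and 0.455% of the mRNA counts of a library. Taf7l itself had 472, 525 and 581 counts in TKI libraries and 507, 551 and 531 counts in TWT libraries, and gene counts cannot show the edited codon, so they do not check the genotype labels. Markers of the testis cell types were detected, and no listed marker was at 0 in every library. The summed level of 7 peritubular myoid markers was 600.8 to 620 CPM (counts relative to library size, scaled by edgeR's TMM factors) in TKI libraries and 542.8 to 568.4 CPM in TWT libraries. For 8 Leydig markers it was 1322 to 1335 CPM in TKI libraries and 1125 to 1304 CPM in TWT libraries, and for 10 spermatogonial markers 791 to 808 CPM in TKI libraries and 737 to 770 CPM in TWT libraries. Without the most abundant marker of each list, the myoid sum was 229 to 263 CPM in TKI libraries and 194 to 222 CPM in TWT libraries (without Actg2). The Leydig sum then overlapped, at 825 to 931 CPM in TKI libraries and 753 to 895 CPM in TWT libraries (without Cyp17a1), as did the spermatogonial sum, at 267 to 324 CPM in TKI libraries and 295 to 309 CPM in TWT libraries (without Dmrtb1). Fitted values were above 0 for 7 of 7 tested myoid, 6 of 8 Leydig and 3 of 9 spermatogonial markers. The summed levels of the spermatocyte, round spermatid, elongating spermatid, Sertoli, macrophage, endothelial and neuronal lists overlapped between the genotypes, but the spermatocyte sum without Ldhc was 3670 to 3830 CPM in TKI libraries and 3266 to 3569 CPM in TWT libraries. Prm2 and Smcp, both of elongating spermatids, were the only 2 markers past the test, at log2 fold changes of 0.53 and 0.40. In whole tissue, fewer cells of a type and less RNA per cell cannot be told apart.

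Of the 45 genes, 43 had enough counts to be tested, and 2 rose in TKI testis: Hnrnpu and Hnrnpm (edgeR quasi-likelihood test, Benjamini-Hochberg adjusted p under 0.05). None fell. The call rate over all 15787 tested genes was 0.982%, or 155 genes, of which 139 were higher and 16 lower in TKI testis, and among the tested splicing regulators it was 4.65%. The median log2 fold change (TKI over TWT) was 0.02 for the 43 regulators and 0.00 for all tested genes, with 24 regulators above 0 and 19 below. The median size of the change, regardless of sign, was 0.09 against 0.12 for all tested genes, and 37 of the 43 lay within 0.2 of 0. The 95% interval of every one of the 43 lay inside a log2 change of 1 in either direction, and 39 lay inside 0.5. The TKI and TWT libraries did not overlap for 15 regulators (34.9%), with TKI above in 8 and below in 7, against 18.5% of all tested genes. The regulators were also more deeply counted, with a median of 60.9 CPM against 16.5 CPM for all tested genes.

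**Figure D1:**
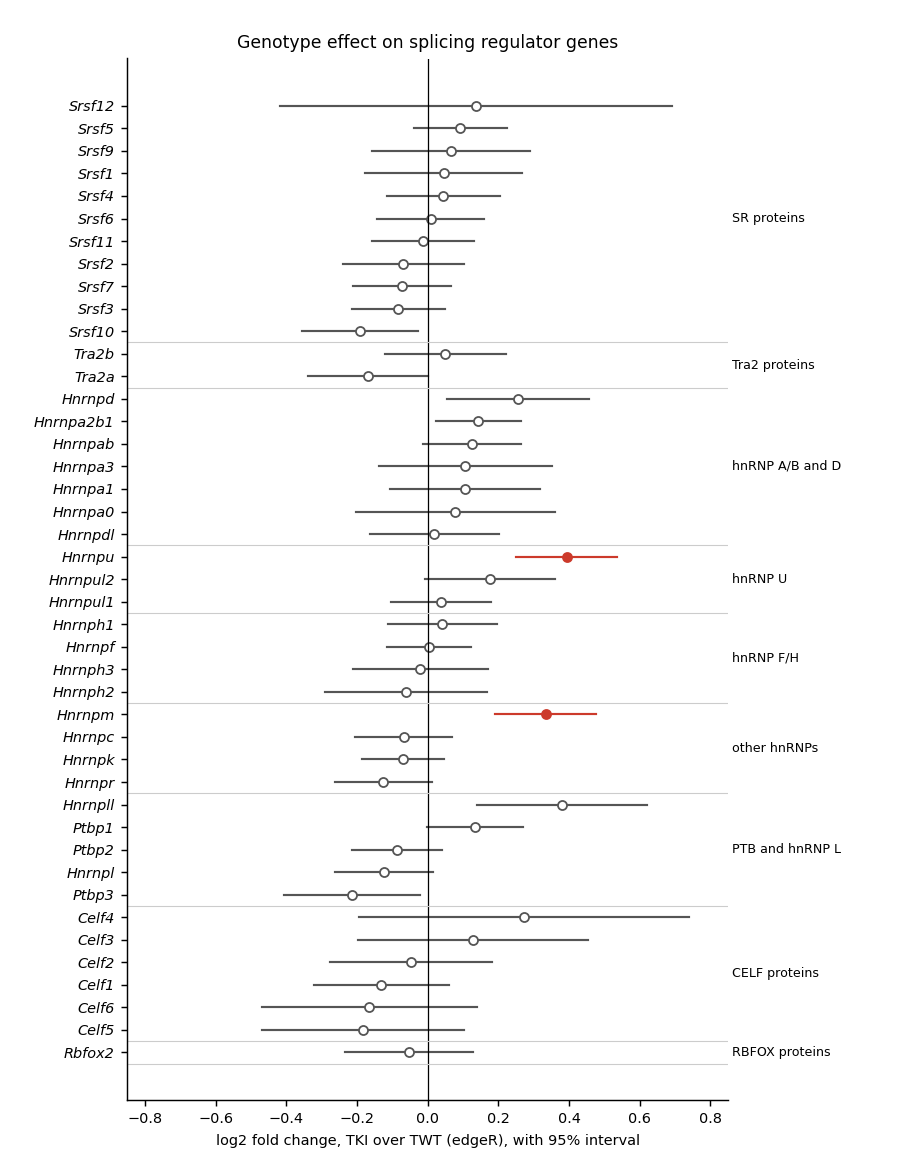
Log2 fold change (TKI over TWT) of the 43 tested genes by family, with 95% intervals from edgeR; filled red points passed an adjusted p of 0.05. Hnrnpu at 0.39 and Hnrnpm at 0.33 are the filled points, and 37 of the 43 lie within 0.2 of 0.

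The promoters of Hnrnpu and Hnrnpm are shown because these are the 2 regulator genes past the test; both are from the RefSeq table of GRCm38.p6 and run from 250 bases before to 50 after a transcript start. Hnrnpu lies on chr1:178321108-178338891 and Hnrnpm on chr17:33646233-33685458, both on the minus strand. The Hnrnpu window is chr1:178337766-178338065, around a start inside the RefSeq gene, and the Hnrnpm window is chr17:33685409-33685708. Capitals mark matches on either strand to any of 5 motifs. These are TATAAA, known as the TATA box, and CCAAT. The GC box was searched as GGGCGG. The cyclic AMP response element was searched as TGACGTCA and the E-box as CACGTG. Neighbouring GC boxes may overlap.
Hnrnpu: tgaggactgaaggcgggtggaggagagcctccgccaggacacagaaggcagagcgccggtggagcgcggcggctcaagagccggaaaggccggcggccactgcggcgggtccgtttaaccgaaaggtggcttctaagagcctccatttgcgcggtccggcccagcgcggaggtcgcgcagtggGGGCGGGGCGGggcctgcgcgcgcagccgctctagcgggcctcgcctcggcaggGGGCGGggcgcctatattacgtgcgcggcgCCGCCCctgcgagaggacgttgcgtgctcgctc
Hnrnpm: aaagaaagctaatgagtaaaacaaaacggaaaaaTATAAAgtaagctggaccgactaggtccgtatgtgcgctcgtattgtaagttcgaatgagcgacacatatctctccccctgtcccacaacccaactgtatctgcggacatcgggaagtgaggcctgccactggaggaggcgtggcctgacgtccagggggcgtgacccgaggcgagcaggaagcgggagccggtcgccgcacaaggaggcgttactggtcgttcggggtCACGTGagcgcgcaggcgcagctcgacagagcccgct
The Hnrnpu window was 72.7% G or C with 41 CpG and 4 GC boxes, and none of the other motifs. The Hnrnpm window was 58.0% G or C with 27 CpG, 1 TATAAA match near its first printed letters, and 1 E-box match.

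RefSeq windows were found for 40 of the 45 genes, 68 windows in all. Their median G or C content was 63.2% with 25 CpG, against 52.7% and 7 CpG for all 32851 windows of the table. The GC box was present in 70.6% of the regulators' windows and 35.7% of all windows, and CCAAT in 45.6% and 37.4%. TATAAA was present in 10.3% of the regulators' windows and 13.6% of all, and CACGTG in 8.82% and 7.15%. TGACGTCA is the palindrome bound by CREB and by CREM, an activator of spermatid genes. It was present in 5 of the regulators' 68 windows (7.35%) and in 1.79% of all windows. The 5 windows belong to only 3 genes, Celf3, Celf6 and Tra2a. A match is a description of these letters and not a site of binding.

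Hnrnpu (ENSMUSG00000039630) encodes the nuclear scaffold attachment protein SAF-A, which binds nascent RNA and chromatin. It had 386, 418 and 416 CPM in TKI libraries and 288, 326 and 315 CPM in TWT libraries. Every TKI library was above every TWT library. The means were 406 ± 17.9 CPM in TKI testis and 309 ± 19.4 CPM in TWT testis (SD, n = 3 each), a rise of 31.4% (log2 fold change 0.39 ± 0.06 SE, 95% interval 0.25 to 0.54, edgeR adjusted p = 0.0254). The authors' deposited table gives a log2 ratio of mean FPKM, not of counts, of 0.29 for Hnrnpu with an adjusted p of 3.4e-06. The edgeR call was lost when TKI 3, TWT 1, TWT 2 or TWT 3 was left out (adjusted p = 0.163, 0.0771, 0.0661 and 0.107), and also when the trend of counts on transcript length was removed (log2 fold change 0.41, adjusted p = 0.0737) or limma was run on log2(FPKM + 1) (0.29, adjusted p = 0.101). The sum of the myoid markers given above was also higher in every TKI library, as was the spermatocyte sum without Ldhc. So were Prm2 and Smcp of elongating spermatids, but the sum of their list overlapped. In that list 7 fitted values were above 0 and 3 below. The part of these markers in the rise of Hnrnpu was not tested.

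A noncoding transcript of Hnrnpu moved the other way. ENSMUST00000146362, listed under Hnrnpu in the noncoding table, had 31, 16 and 22 counts in TKI libraries and 148, 199 and 156 counts in TWT libraries. These are 21.4, 11.0 and 13.4 CPM of the noncoding table in TKI libraries and 101, 139 and 113 CPM in TWT libraries, and the groups were far apart. The means were 15.2 ± 5.45 CPM in TKI testis and 117 ± 19.4 CPM in TWT testis (SD, n = 3 each), so the transcript was 7.69-fold lower in TKI testis (log2 fold change -2.94 ± 0.26 SE, 95% interval -3.54 to -2.34, edgeR adjusted p = 0.00519). It was called in all 6 fits that left out 1 library, with log2 fold changes of -3.26 to -2.76 and edgeR adjusted p of 0.00815 to 0.0456. Not every other setting kept the call, as given in the last section. Over all 9301 tested noncoding transcripts 9 were called, or 0.0968%, of which 4 were lower in TKI testis. The other listed transcript of the gene, ENSMUST00000159117, had 30.4, 46.0 and 46.2 CPM in TKI libraries and 50.4, 105 and 50.6 CPM in TWT libraries, without passing the test (log2 fold change -0.75 ± 0.33 SE, edgeR adjusted p = 0.559). Taken as noncoding counts per 100 counts of the coding gene, Hnrnpu gave 1.07, 1.03 and 1.11 in TKI libraries and 4.21, 5.67 and 4.08 in TWT libraries. How reads that fit both a coding and a noncoding transcript of a locus were divided is not given in the sources used here. Cox20, for an assembly factor of cytochrome c oxidase, overlaps the end of Hnrnpu and stood at 0.31 ± 0.19 SE on the log2 scale (edgeR adjusted p = 0.552), and whether counting used the strand is not given either.

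**Figure D2:**
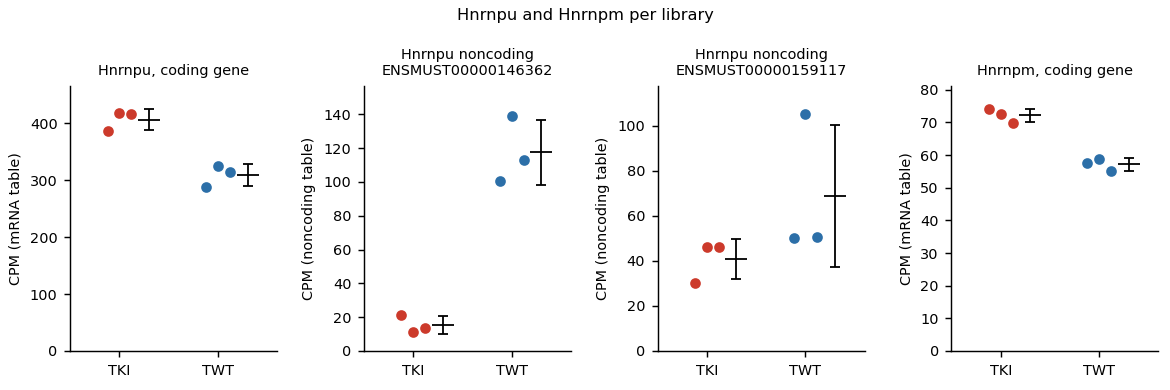
CPM per library (TMM-scaled, from the table named on each axis) of Hnrnpu, its 2 noncoding transcripts and Hnrnpm; points are libraries, and bars are the mean and SD of 3. The coding genes are higher in all TKI libraries, and ENSMUST00000146362 is at 11.0 to 21.4 CPM in TKI libraries, below the 101 to 139 CPM of TWT libraries.

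The other hnRNP U genes passed no test. Hnrnpul1, for a U-like protein of RNA export and DNA repair, had 520, 456 and 512 CPM in TKI libraries and 498, 475 and 477 CPM in TWT libraries. Its libraries overlapped, and the log2 fold change was 0.04 ± 0.06 SE (edgeR adjusted p = 0.864). Hnrnpul2 stood at 0.18 ± 0.08 SE with an edgeR adjusted p of 0.406.

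Hnrnpm (ENSMUSG00000059208) encodes a protein that binds GU-rich RNA and is best known for regulating exons of CD44 in epithelial-mesenchymal transition. It had 74.1, 72.5 and 69.9 CPM in TKI libraries and 57.7, 58.8 and 55.1 CPM in TWT libraries, and the groups did not overlap. The means were 72.2 ± 2.11 CPM in TKI testis and 57.2 ± 1.91 CPM in TWT testis (SD, n = 3 each), a rise of 26.1% (log2 fold change 0.33 ± 0.06 SE, 95% interval 0.19 to 0.48, edgeR adjusted p = 0.0442). The authors' deposited table gives a log2 ratio of mean FPKM of 0.34 with an adjusted p of 0.00534. The call is close to the threshold: leaving out any 1 library ended it (adjusted p = 0.0757 to 0.195, log2 fold change 0.31 to 0.36), as did RLE scaling (0.0539), upper-quartile scaling (0.0628), limma on FPKM (0.0566) and removal of the length trend (0.12). The myoid sum, the spermatocyte sum without Ldhc, Prm2 and Smcp were higher in the same libraries, while the elongating spermatid sum overlapped. The part of these markers was not tested. Of the genes within 100000 bases of Hnrnpu or Hnrnpm, none of those tested was called.

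Most of the regulators were well expressed, with 32 of 45 at 10 FPKM or more on average (the authors' level per transcript length and library size). The most abundant was Hnrnpf at 388 FPKM, ahead of Hnrnpk at 198, Hnrnpl at 122 and Hnrnpul1 at 109 FPKM. The lowest were Rbfox3 at 0.192 and Rbfox1 at 0.0933 FPKM, the 2 untested genes, both known mainly from neurons.

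**Figure D3:**
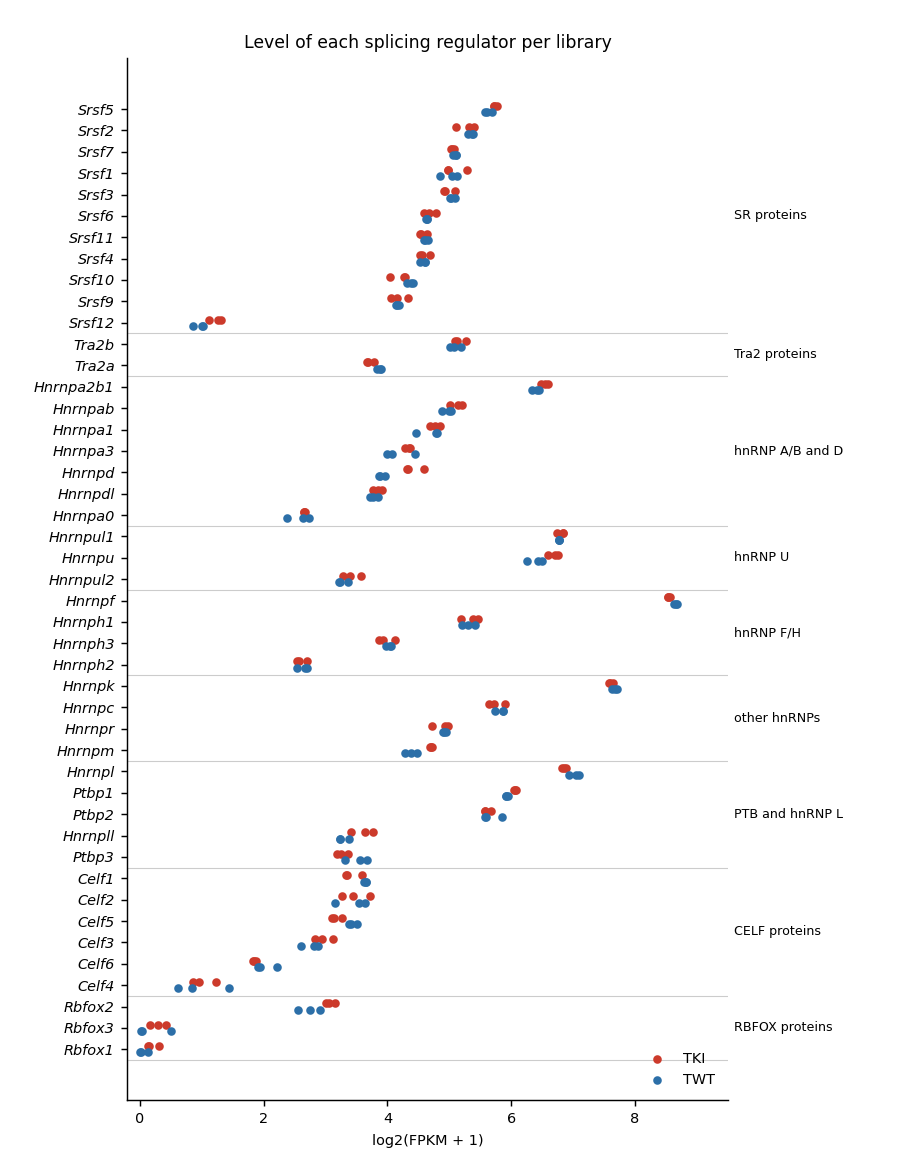
Level of each of the 45 genes in each library as log2(FPKM + 1), ordered by family and mean level, with TKI libraries in red above TWT libraries in blue. Levels run from Rbfox1 near 0 to Hnrnpf at 388 FPKM, and the genotypes lie close together for most genes.

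The SR proteins themselves showed no call among 11 tested genes. Their log2 fold changes ran from -0.19 to 0.14 with a median of 0.01, and 6 were above 0 and 5 below. The summed level of the 11 genes was 286, 307 and 284 FPKM in TKI libraries and 287, 297 and 293 FPKM in TWT libraries, so the groups overlapped. Srsf5 was the most abundant at 50.3 FPKM and Srsf12, which acts as a splicing repressor, the least at 1.15 FPKM. Srsf1, the founding member of the family, had 91.7, 107 and 84.8 CPM in TKI libraries and 81.9, 93.4 and 99.6 CPM in TWT libraries (log2 fold change 0.05 ± 0.10 SE, edgeR adjusted p = 0.902). Srsf10, which represses splicing when dephosphorylated and is needed in mouse spermatogonia, had the lowest fitted log2 fold change of the family. Its levels were 64.0, 60.9 and 56.0 CPM in TKI libraries and 71.2, 65.5 and 69.8 CPM in TWT libraries. The TKI libraries lay below the TWT libraries, but the gene did not pass the test (log2 fold change -0.19 ± 0.07 SE, edgeR adjusted p = 0.305).

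The SR-like Tra2 proteins bind GA-rich exonic enhancers. Tra2b, whose protein regulates testis exons, had 110, 95.3 and 99.2 CPM in TKI libraries and 106, 91.2 and 97.1 CPM in TWT libraries, overlapping (log2 fold change 0.05 ± 0.08 SE, edgeR adjusted p = 0.855). Tra2a had 27.8, 28.8 and 27.9 CPM in TKI libraries and 31.7, 31.1 and 32.3 CPM in TWT libraries. Its TKI libraries were all below, without a call (log2 fold change -0.17 ± 0.08 SE, edgeR adjusted p = 0.387).

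The hnRNP A/B and D genes encode the core particle proteins and the AU-rich element binding proteins. All 7 had fitted values above 0, from 0.02 to 0.26 with a median of 0.11, and none passed the test (edgeR adjusted p = 0.268 to 0.954). Their summed level was 206, 220 and 204 FPKM in TKI libraries and 176, 195 and 191 FPKM in TWT libraries, without overlap. Sums of other families also did not overlap. TKI was above for hnRNP U (217 to 226 against 192 to 206 FPKM) and RBFOX (7.58 to 8.22 against 4.91 to 6.96). TKI was below for hnRNP F/H (424 to 437 against 452 to 473) and for PTB and hnRNP L (245 to 252 against 257 to 261). The remaining family sums overlapped, and none of the sums was tested. FPKM also depends on the transcript length used, as given below. In counts, the most abundant genes of RBFOX and hnRNP F/H overlapped between the genotypes. Rbfox2 stood at a log2 fold change of -0.05 and Hnrnpf at 0.00. The most abundant A/B and D gene was Hnrnpa2b1, for a reader of RNA sorting and packaging signals. It had 191, 191 and 182 CPM in TKI libraries and 167, 169 and 175 CPM in TWT libraries. The groups did not overlap, and the log2 fold change was 0.14 ± 0.05 SE (edgeR adjusted p = 0.299). Hnrnpd, for the mRNA decay factor AUF1, had 36.6, 40.0 and 35.4 CPM in TKI libraries and 30.9, 28.9 and 34.0 CPM in TWT libraries (log2 fold change 0.26 ± 0.09 SE, edgeR adjusted p = 0.268). In FPKM Hnrnpd was further apart, at 18.8, 23.0 and 19.1 in TKI libraries and 13.7, 13.5 and 14.5 in TWT libraries, and limma on log2(FPKM + 1) called it higher (0.51, adjusted p = 0.0307). Hnrnpa1 and Hnrnpa3 have processed pseudogenes, so their counts are uncertain where reads fit both.

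The hnRNP F/H proteins bind G-rich runs. Hnrnpf had 715, 680 and 713 CPM in TKI libraries and 713, 687 and 703 CPM in TWT libraries, interleaved (log2 fold change 0.00 ± 0.05 SE, 95% interval -0.12 to 0.12, edgeR adjusted p = 0.988). Its FPKM did not overlap, at 377, 370 and 370 in TKI libraries and 396, 402 and 410 in TWT libraries. Hnrnph2 is the one X-linked regulator near Taf7l, 124674 bases from it, and had 15.1, 15.4 and 14.1 CPM in TKI libraries and 14.7, 15.6 and 16.2 CPM in TWT libraries (log2 fold change -0.06 ± 0.10 SE, edgeR adjusted p = 0.867). Hnrnph1 and Hnrnph3 stood at 0.04 and -0.02.

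Hnrnpk, for a poly(C)-binding protein, had 404, 397 and 406 CPM in TKI libraries and 426, 408 and 431 CPM in TWT libraries. The TKI libraries were below, without a call (log2 fold change -0.07 ± 0.05 SE, edgeR adjusted p = 0.646). Hnrnpc, which binds uridine tracts, had 101, 113 and 105 CPM in TKI libraries and 109, 114 and 112 CPM in TWT libraries, overlapping (log2 fold change -0.07 ± 0.06 SE, edgeR adjusted p = 0.719).

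PTB proteins bind pyrimidine tracts and mostly repress exons, and hnRNP L and its relative LL bind CA-rich RNA. Ptbp1 had 169, 164 and 181 CPM in TKI libraries and 162, 158 and 149 CPM in TWT libraries, with TKI above (log2 fold change 0.13 ± 0.06 SE, edgeR adjusted p = 0.39). Its relatives had the other sign. Ptbp2, which male germ cells need, had 119, 116 and 110 CPM in TKI libraries and 124, 122 and 120 CPM in TWT libraries (log2 fold change -0.09 ± 0.06 SE, edgeR adjusted p = 0.58). Ptbp3 had 46.8, 47.7 and 42.5 CPM in TKI libraries and 47.9, 57.2 and 53.8 CPM in TWT libraries (log2 fold change -0.21 ± 0.09 SE, edgeR adjusted p = 0.33). For both, every TKI library lay below every TWT library. Hnrnpl had 175, 173 and 187 CPM in TKI libraries and 205, 184 and 194 CPM in TWT libraries (log2 fold change -0.12 ± 0.06 SE, edgeR adjusted p = 0.444). Hnrnpll, known for regulating CD45 exons in lymphocytes, had 47.7, 41.5 and 36.1 CPM in TKI libraries and 31.8, 30.3 and 34.2 CPM in TWT libraries. The groups did not overlap; the log2 fold change was 0.38 ± 0.11 SE with an edgeR adjusted p of 0.161, and DESeq2 called it (adjusted p = 0.0483).

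CELF proteins bind GU-rich RNA and act in splicing and mRNA decay. None of the 6 was called, with log2 fold changes of -0.18 to 0.27. Celf1, which mouse sperm formation needs, had 63.9, 79.0 and 70.6 CPM in TKI libraries and 73.1, 79.1 and 81.8 CPM in TWT libraries, overlapping (log2 fold change -0.13 ± 0.09 SE, edgeR adjusted p = 0.582). Celf5 had 16.7, 16.8 and 15.1 CPM in TKI libraries and 21.6, 15.8 and 17.9 CPM in TWT libraries (log2 fold change -0.18 ± 0.13 SE, edgeR adjusted p = 0.614). Celf4 and Celf6 were low, Celf4 with 2.86, 3.82 and 3.25 CPM in TKI libraries and 2.67, 2.43 and 3.12 CPM in TWT libraries, and Celf6 with 7.20, 7.55 and 7.05 CPM in TKI libraries and 7.26, 8.28 and 8.92 CPM in TWT libraries. Of the RBFOX proteins, which bind UGCAUG, Rbfox2 was tested and stood at -0.05 ± 0.08 SE (edgeR adjusted p = 0.851).

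The noncoding table lists 62 transcripts under the symbols of 20 of the regulators. Counts were above 0 for 42 of them, and 20 transcripts of 11 genes were tested, with 1 call, the Hnrnpu transcript. Their median log2 fold change was -0.04, against 0.00 for all tested noncoding transcripts. Noncoding transcripts of SR genes often carry an exon with a stop codon, through which these proteins limit their own mRNA, but the table gives no such class. The 5 with the highest mean FPKM came from Srsf2, Srsf5, Ptbp1 and Hnrnph1 and were not called. The Srsf2 transcript ENSMUST00000177429 had 74.5, 79.0 and 51.0 CPM in TKI libraries and 80.4, 84.4 and 54.9 CPM in TWT libraries. For Srsf5, ENSMUST00000125814 had 139, 154 and 116 CPM in TKI libraries and 125, 142 and 116 CPM in TWT libraries, and ENSMUST00000152662 had 63.5, 53.6 and 65.0 CPM in TKI libraries and 33.4, 64.2 and 49.9 CPM in TWT libraries. These groups overlapped. Ptbp1 ENSMUST00000099958 had 94.5, 113 and 68.0 CPM in TKI libraries and 111, 64.9 and 100.5 CPM in TWT libraries, and Hnrnph1 ENSMUST00000123371 had 324, 392 and 337 CPM in TKI libraries and 355, 456 and 422 CPM in TWT libraries. Both groups overlapped for each transcript. Summed over its transcripts, Hnrnph1 gave 34.7, 38.4 and 34.7 noncoding counts per 100 coding counts in TKI libraries and 39.3, 47.7 and 40.5 in TWT libraries, which did not overlap and were not tested.

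**Figure D4:**
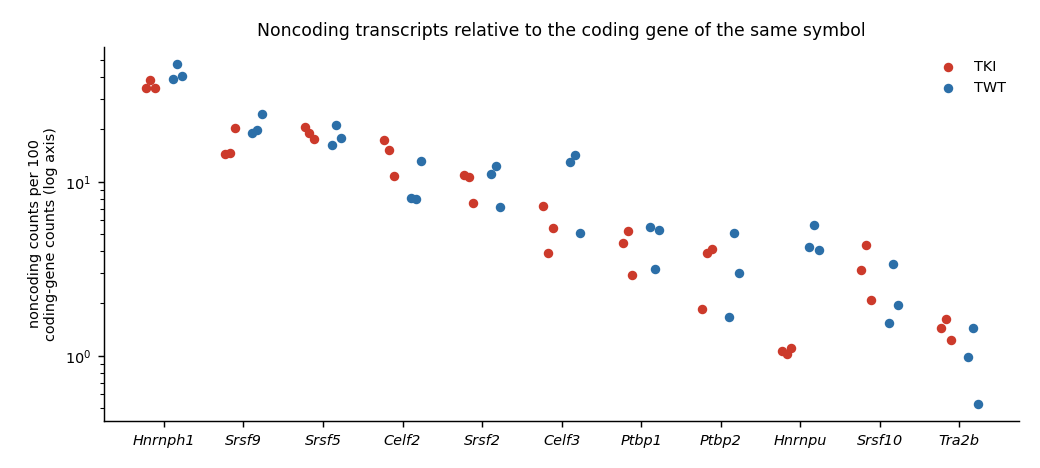
Noncoding counts per 100 counts of the coding gene (log axis) for the 11 genes with a tested noncoding transcript; each point is 1 library, TKI in red left of TWT in blue. Hnrnpu shows the gap of 1.03 to 1.11 in TKI libraries and 4.08 to 5.67 in TWT libraries, and Hnrnph1 a narrower one.

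Circular RNAs form when a downstream splice site joins an upstream one. The circular RNA table holds 24 circles from 11 of the regulator genes, with 50, 35 and 45 counts in TKI libraries and 39, 29 and 34 counts in TWT libraries in all. Of the 12 tested circles none was called by edgeR, and 0 had an unadjusted p under 0.05. Over all 3887 tested circles the call rate was 0% and 191 had an unadjusted p under 0.05; DESeq2 also called 0 of the regulators' circles. The most counted was a circle of Hnrnpll at chr17:80044494-80053641 (mm10), with 9, 7 and 10 counts in TKI libraries and 9, 13 and 14 counts in TWT libraries. A Ptbp3 circle at chr4:59514274-59524476 had 12, 1 and 6 counts in TKI libraries and 4, 6 and 6 counts in TWT libraries. The leading circles of Hnrnph3, Ptbp2 and Srsf1 had 0 to 5 counts in a library. These were 3, 3 and 2 counts in TKI libraries and 4, 1 and 2 in TWT libraries for Hnrnph3. For Ptbp2 they were 1, 3 and 2 in TKI libraries and 2, 3 and 1 in TWT libraries. Srsf1 had 2, 3 and 1 in TKI libraries and 5, 0 and 0 in TWT libraries. A second Ptbp3 circle ranked above the Srsf1 circle by mean RPM, the authors' level. It had 2, 0 and 0 counts in TKI libraries and 2, 1 and 5 in TWT libraries, without a call. One Rbfox2 circle at chr15:77132717-77132941, chosen after its values were seen, had 2, 8 and 0 counts in TKI libraries and 0 counts in each TWT library, and was not tested.

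Dividing each gene's count by its FPKM and by the library's total count gives the transcript length that the authors' FPKM implies. This length moves when the estimated isoforms move. The lengths of each library were then scaled to a common median over the compared genes. They were compared for 12656 genes with a mean of 1 FPKM or more by limma, a test added after the data were seen. Of these genes 6 were called (0.0474%). Of 43 regulators none was called. An unadjusted limma p under 0.05 was found for 8 of the 43 and for 1052 of the 12656 genes (8.31%). The share was thus higher among the regulators, which were also more deeply counted (median 60.9 CPM against 16.5 CPM for all tested genes). The part of depth in this share was not tested. The 4 shown here were chosen after their values were seen. Hnrnpu had an implied length of 3958, 3987 and 3969 bases in TKI libraries and 3738, 3721 and 3710 bases in TWT libraries, without overlap and with small spread (log2 difference 0.09 ± 0.0063 SE, limma adjusted p = 0.0658). It was called where the minimum was 5 FPKM (adjusted p = 0.0231). Hnrnpf had 1861, 1878 and 1904 bases in TKI libraries and 1758, 1754 and 1725 bases in TWT libraries (0.11, limma adjusted p = 0.132). Hnrnpd had 1906, 1776 and 1834 bases in TKI libraries and 2201, 2189 and 2361 bases in TWT libraries (-0.29, limma adjusted p = 0.187). Rbfox2 had 3878, 3966 and 4010 bases in TKI libraries and 5847, 5381 and 4920 bases in TWT libraries (-0.44, limma adjusted p = 0.196). For these 4 genes the groups did not overlap, and fold changes in FPKM and in counts differ accordingly.

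**Figure D5:**
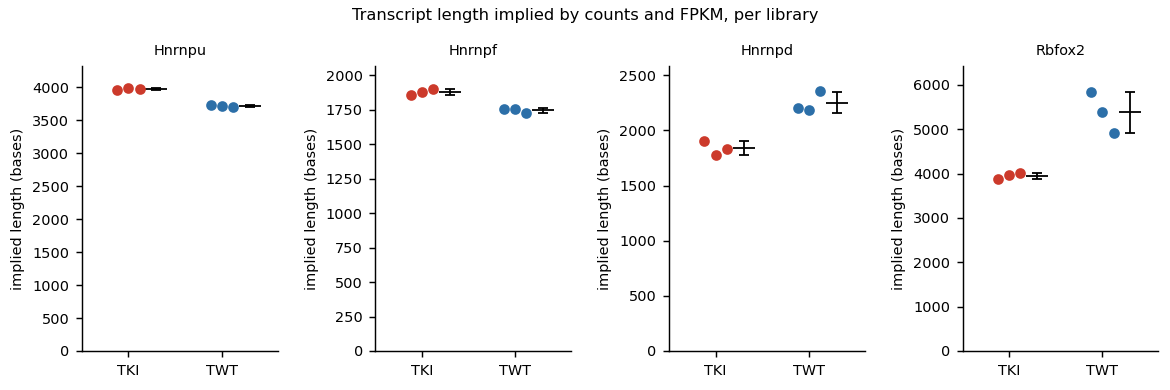
Transcript length implied by count and FPKM (bases) in each library for 4 genes, scaled to a common median over the compared genes. Points are libraries, and bars are the mean and SD of 3. Hnrnpu and Hnrnpf are longer and Hnrnpd and Rbfox2 shorter in all TKI libraries, none of them past an adjusted p of 0.05.

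Genes that act on or beside these regulators were listed from textbook knowledge, with earlier results of these data known. Of 15 SR protein kinases, phosphatase subunits and nuclear importers, which set the phosphorylation and the nuclear entry of SR proteins, 14 were tested and 0 were called, with a median log2 fold change of -0.07 and 11 below 0. Of 67 other splicing regulators 65 were tested and 0 called, with a median of 0.07, 41 above 0 and 24 below. Of 16 listed factors of nonsense-mediated decay, the pathway that degrades mRNA with early stop codons, 1 was called. Upf3a, the autosomal relative of X-linked Upf3b, had 103, 97.2 and 108 CPM in TKI libraries and 77.3, 71.3 and 75.4 CPM in TWT libraries, and was higher in TKI testis by 0.46 ± 0.06 SE on the log2 scale (adjusted p = 0.0143, edgeR). Whether the Upf3a call holds under other settings is not given here. Calls over all genes varied with the settings, as given in the last section. Beside the call rate of 0.982% over all genes, these lists stand at 0, 0 and 1 call.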

How the data were processed

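Whole-testis RNA was extracted with Trizol and made into 3 TKI and 3 TWT stranded total RNA libraries, per the labels. The authors deposited 3 tables: one of mRNA genes, one of noncoding transcripts and one of circular RNAs. The submitters' processing notes name mm10. The sources used here name no aligner or counting program. Per the file headers, each table holds a count per feature and library, the first 2 also FPKM and the third RPM, and the authors' log2 fold changes and p-values stand beside them. FPKM assumes a transcript length, so a shift in estimated isoforms changes it while the count stays.

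Counts were tested with edgeR 4.0.16 (R 4.3.3; TMM, quasi-likelihood, two-sided, genotype only) after filterByExpr (minimum count 10, total 15), or for circles when at least 3 libraries were above 0; adjusted p-values are Benjamini-Hochberg over each whole table. SE is the log2 fold change divided by the root of F. Alternatives used DESeq2 1.42.0, limma 3.58.1 on log2(FPKM + 1), other scalings, no filter, length-trend removal, a replicate block and each library left out. The scripts were tested on simulated counts. No 2 libraries of a genotype agreed within sampling noise (chi-square per degree of freedom 5.54 to 10.8). The biological coefficient of variation was 11.1% for mRNA genes, 26.4% for noncoding transcripts and 43.3% for circles.

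Members and gene lists were chosen with earlier results of these data known. Values per library are given for members called, the 8 with the highest FPKM, the 5 largest fitted rises and falls, and Ptbp2, Srsf10, Celf1 and Tra2b. Of noncoding transcripts they are given for those called and the 5 highest by mean FPKM. Of circles they are given for the 5 with the most counts and for a second Ptbp3 circle, which is among the 5 highest by mean RPM. Srsf1, Hnrnph2, the second Hnrnpu noncoding transcript, ENSMUST00000159117, and one Rbfox2 circle fall outside this rule and were added after their values were seen, as were the 4 genes shown for implied length. Gene positions were matched by symbol to RefSeq GRCm38.p6, for 45 of 45 genes. No protein sequences were used here.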

Additional observations from a re-analysis of the deposited data

How the results depend on the processing

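Where 1 library was left out, calls over all mRNA genes numbered 11 to 125 and among the regulators 0 to 1, against 155 and 2 with all 6 libraries. They were 460 in all with DESeq2, 263 with limma on log2(FPKM + 1) and 35 with the length trend removed. Among the regulators, RLE scaling, upper-quartile scaling and the replicate block left 1 call (Hnrnpu), limma on FPKM made 1 (Hnrnpd), removing the length trend left 0 and DESeq2 made 3 (Hnrnpu, Hnrnpm and Hnrnpll). All noncoding transcripts gave 110 calls with DESeq2, 129 without a filter, 39 with limma and 6 to 15 with 1 library left out, against 9. Calls on circles and on implied length were 0 to 1 with 1 library left out; implied length gave 0 calls under the replicate block and 14 at a minimum of 5 FPKM, 1 of them a regulator (Hnrnpu).

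Same-numbered libraries of the genotypes correlated at 0.137, 0.078 and 0.0322, too low to treat the numbers as pairs, and 5 of 6 libraries were closest to their own number. With the replicate block, noncoding calls numbered 2 in all and 0 among the regulators (Hnrnpu ENSMUST00000146362 at -2.95, edgeR adjusted p = 0.114), and Hnrnpm had an edgeR adjusted p of 0.0543.

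Uncalled values near 0 changed sign. Hnrnpf was -0.0029 with DESeq2 and with RLE scaling, -0.014 with upper-quartile scaling, -0.11 with limma and -0.011 without the length trend. With 1 library left out, the ranges were -0.014 to 0.026 for Hnrnpf, -0.00085 to 0.095 for Hnrnpul1, -0.015 to 0.10 for Tra2b, -0.28 to 0.066 for Srsf2 ENSMUST00000177429, -0.0014 to 0.20 for Srsf5 ENSMUST00000125814 and -0.21 to 0.17 for Ptbp1 ENSMUST00000099958. For circles they were -0.78 to 0.61 for the Ptbp3 circle with the most counts (-0.097 under the replicate block), -0.21 to 0.61 for Hnrnph3, -0.55 to 0.32 for Ptbp2 and -0.32 to 4.04 for Srsf1. The causes of these shifts were not tested. All 24 circles together had 35 to 50 counts per TKI library and 29 to 39 per TWT library, so their values rest on few counts.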
